A study of Homo sapiens with 16 samples.

Results

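The Krüppel-like factors (KLFs) examined here are KLF2, KLF3, KLF4, KLF5, KLF6, KLF7, KLF9, KLF10, KLF11 and KLF13, found by symbol in the deposited count table as 10 of its 35993 genes. They were measured by total RNA sequencing in 253J, J82, RT112 and TCCSUP, which are established human bladder cancer cell lines labelled as wild type. Cells received CM-1758, an inhibitor of histone deacetylases, for 48 h at the half-maximal inhibitory concentration of their own line. Controls are listed here as given 0.01% DMSO, the vehicle, while the study's captions for these data call the control cells untreated. There were 2 libraries per line and treatment, 16 in all, which the study describes as independent experiments. 253J, J82 and RT112 were kept in DMEM and TCCSUP in EMEM, so line, medium and drug concentration cannot be told apart when lines are compared. Each library is a bulk measurement, in which fewer expressing cells and less RNA per cell cannot be told apart.

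KLFs are DNA-binding proteins with 3 zinc fingers near the carboxyl end that contact GC-rich and CACCC sequences, the same family of sites bound by the SP factors. Their amino ends differ and set which partners they bring: KLF3 binds the corepressor CTBP, KLF9, KLF10, KLF11 and KLF13 bring SIN3A, and KLF2, KLF4, KLF5, KLF6 and KLF7 are mostly described as activators. In epithelia KLF5 is a factor of proliferating basal cells and KLF4 of differentiating cells, while KLF2 is best known from endothelium and lymphocytes, where the kinase MAPK7 and the MEF2 factors drive it.

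Library totals ran from 22506431 to 32537104 counts, and single members had 5 to 4895 counts in a library. Of the 7 abundant small noncoding RNA genes, the summed share was 9.58% to 13.2% of counts in control libraries and 10.2% to 21.3% in treated ones, highest in treated TCCSUP, and no member changed its call in any line when these genes were left out before scaling. KRT8 and KRT18, keratins of simple epithelium, had at least 996 counts in every library. The urothelial markers were uneven, since UPK2 had no more than 2 counts in any library of 253J, J82 and TCCSUP and 53 to 134 counts in RT112. Of the markers of blood and endothelial cells, CD3E had 0 counts in every control library, and PTPRC had 218 and 275 counts in the TCCSUP controls against 26 and 32 after the drug. The other epithelial markers were mixed, and some were low in several lines. As control means in CPM, the TMM-scaled count relative to the size of the library, EPCAM was 216 for RT112, 10.7 for TCCSUP, 1.24 for J82 and 0.467 for 253J, and KRT5 was 277 for RT112 and no more than 0.191 elsewhere. The mesenchymal marker VIM was 1499 for 253J, 296 for J82, 3.85 for TCCSUP and 0.444 for RT112, and CDH2 was 4.69 for RT112 and 525 to 584 in the others. RT112 thus had the highest EPCAM, KRT5 and UPK2 and the lowest VIM and CDH2 of the 4 lines. Other keratins did not all follow this order. KRT18 was lowest in RT112, at 855 against 969 for TCCSUP, 1845 for J82 and 2327 for 253J. KRT8 was 3030 for J82 and 1031 for RT112. KRT19 was 116 for TCCSUP, 418 for J82, 877 for 253J and 1908 for RT112.

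All 10 members passed the filter on low counts and were tested among 21297 genes. A gene was called when the adjusted p of edgeR's quasi-likelihood test was under 0.05. Statements below that treated and control libraries did not overlap describe 2 libraries against 2 and are not a test. The share of all genes without overlap was not counted. Uncalled values such as KLF3 and KLF6 in 253J had no overlap either. In 253J 6 members were higher and 1 lower with CM-1758, where 28.8% of all tested genes were higher and 22.4% lower. In J82 3 were higher and 2 lower, beside 24% and 18.5% of all genes. In RT112 8 were higher and 0 lower, beside 27.4% and 20.2% of all genes. In TCCSUP 5 were higher and 2 lower, beside 32% and 22.1% of all genes. The median log2 fold change of the 10 members was 0.99 for 253J, 0.78 for RT112, 0.25 for TCCSUP and -0.12 for J82, and that of all genes was 0.10, 0.12, 0.20 and 0.05 in the same order. Leaving out 1 library moved some counts: members higher in J82 were 1 without J82 control replicate 3 or J82 treated replicate 3, members higher in RT112 were 5 without RT112 control replicate 1, members lower in TCCSUP were 1 without TCCSUP control replicate 2 or TCCSUP treated replicate 1, and members lower in J82 were 1 in most such fits because KLF4 left the call. Under the limits that the study used for its own gene lists, a log2 fold change above 2 and an adjusted p under 0.01, 4 members were higher in 253J, 3 in RT112, 2 in TCCSUP and 0 in J82, beside 9.43%, 11.4%, 14.2% and 8.81% of all genes.

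**Figure D1:**
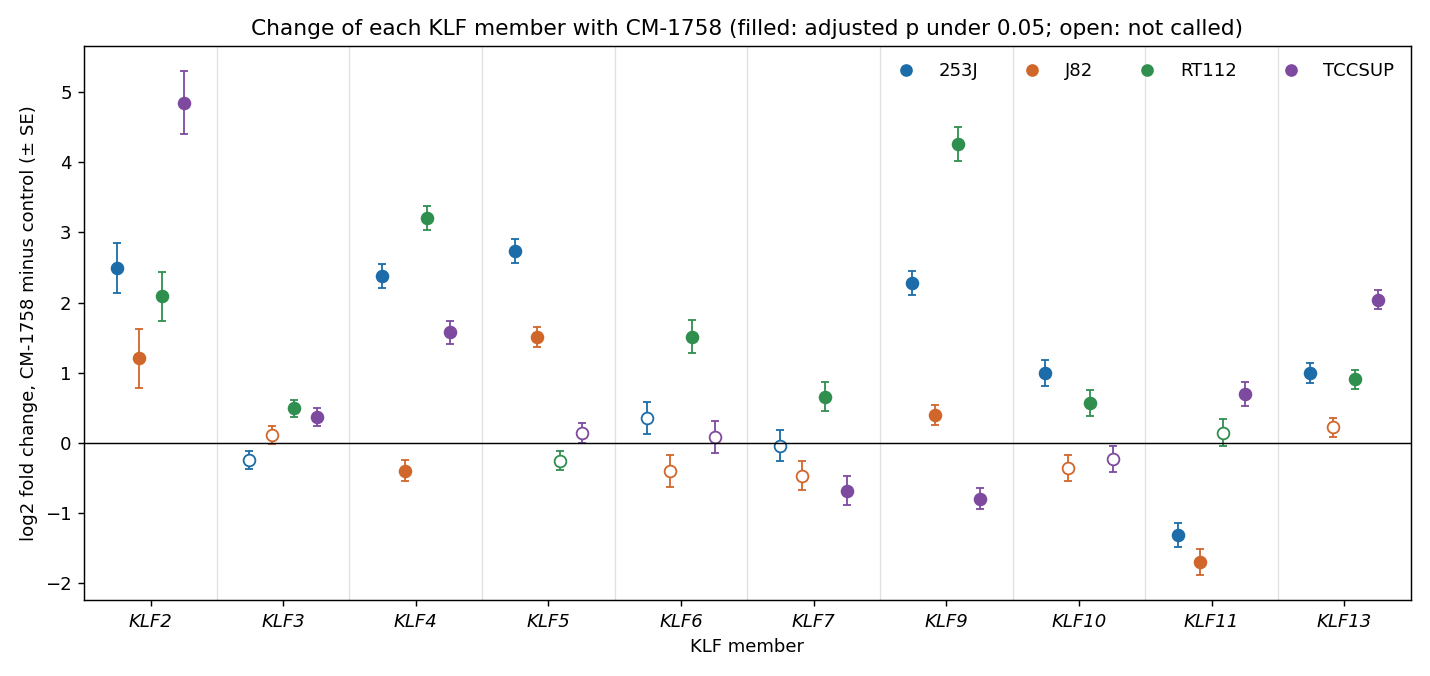
Log2 fold change (CM-1758 minus control, vertical axis) of each KLF member in the 4 cell lines, with the standard error as bars. Filled circles have an adjusted p under 0.05 and open circles do not, and only KLF2 has 4 filled circles above 0.

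Each member behaved differently from line to line. The effect of CM-1758 differed between the lines for all 10 members by an F test of the interaction, with adjusted p from 2.32e-08 for KLF9 to 0.0139 for KLF3 in edgeR's quasi-likelihood test, and 51.9% of all genes passed the same test. KLF3 lost this call when 253J control replicate 2 was left out (adjusted p = 0.0566) or 253J treated replicate 3 (adjusted p = 0.0536). KLF2 was the only member higher in all 4 lines, a pattern of 6.69% of all genes. KLF13 was also higher in all 4 lines under library size alone, with at least 10 counts in every library and in DESeq2. KLF4, KLF7, KLF9 and KLF11 were each called higher in at least 1 line and lower in another, a pattern of 12.9% of all genes. Averaged over the lines, 8 members were higher, KLF11 was lower and KLF7 was not called, beside 36.9% of all genes higher on average.

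The upstream sequences of the members that were called in 1 direction or the other in at least 3 lines and have a single RefSeq start follow, to show the DNA next to which these changes were measured. Each is the 250 bases before the start of the gene (RefSeq, GRCh38.p14), 5′ to 3′ on the gene's own strand. Capitals mark the GC box, GGGCGG, and the CACCC box on either strand, the letters that KLF and SP factors are known to contact. KLF2 lies at chr19:16324576-16324825, plus strand. KLF4 lies at chr9:107489770-107490019, minus strand. KLF9 lies at chr9:70414658-70414907, minus strand. KLF13 lies at chr15:31326585-31326834, plus strand.
KLF2: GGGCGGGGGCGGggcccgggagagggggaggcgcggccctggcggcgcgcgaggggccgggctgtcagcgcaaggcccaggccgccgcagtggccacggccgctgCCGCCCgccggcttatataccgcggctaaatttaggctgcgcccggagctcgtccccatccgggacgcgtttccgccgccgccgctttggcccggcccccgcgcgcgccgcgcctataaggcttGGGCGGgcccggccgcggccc
KLF4: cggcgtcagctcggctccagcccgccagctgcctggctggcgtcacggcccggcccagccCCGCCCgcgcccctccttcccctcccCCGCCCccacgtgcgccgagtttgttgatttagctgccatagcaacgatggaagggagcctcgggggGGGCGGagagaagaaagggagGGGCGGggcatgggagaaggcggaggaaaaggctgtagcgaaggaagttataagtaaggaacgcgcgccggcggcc
KLF9: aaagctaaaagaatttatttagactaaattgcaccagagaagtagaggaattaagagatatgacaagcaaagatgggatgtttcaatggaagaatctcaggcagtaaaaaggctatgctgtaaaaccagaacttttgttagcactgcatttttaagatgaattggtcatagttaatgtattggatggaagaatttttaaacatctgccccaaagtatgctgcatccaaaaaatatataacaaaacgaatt
KLF13: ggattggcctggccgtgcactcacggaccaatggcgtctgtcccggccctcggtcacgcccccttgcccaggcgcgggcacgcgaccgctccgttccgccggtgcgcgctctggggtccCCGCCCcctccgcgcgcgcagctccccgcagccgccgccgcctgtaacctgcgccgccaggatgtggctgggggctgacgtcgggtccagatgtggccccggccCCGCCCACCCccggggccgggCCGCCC

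The KLF2 and KLF4 windows each hold 4 GC boxes and 0 CACCC letters, the KLF13 window holds 3 GC boxes, the second of which runs into its 1 CACCC match, and the KLF9 window holds 0 of both. Their content of G and C was 80% for KLF2, 69.2% for KLF4, 32.4% for KLF9 and 78.8% for KLF13, beside a median of 58% over all windows. RefSeq windows were used for 8 of the 10 members, 13 windows in all, and none was used for KLF3 or KLF10. A filter left out any member window on chromosome 8, and the set of all windows had no such filter. A GC box was present in 8 of the 13 and in at least 1 window of 7 of the 8 members. CACCC was present in 6 of the 13 and in at least 1 window of 4 of the 8 members. Among all 35116 windows of this length, 42.6% hold GGGCGG and 54.7% hold CACCC. The CCAAT box was also searched on both strands and was present in 6 of the 13 windows and in 32% of all windows. The TATA box, read as TATAAA, was present in 1 of the 13 and in 10.7% of all. The cyclic AMP response element, read as TGACGTCA, was present in 1 of the 13 and in 1.65% of all. It was in the second window of KLF11, where its last 2 letters are the first 2 of the CACCC match. A match of letters is a description of the window, and the data hold no measurement of binding.

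KLF2, an activator that holds endothelial cells and naive T cells in a quiescent state, had the largest mean effect of the members, a log2 fold change of 2.66 ± 0.20 (SE, adjusted p = 1.75e-08). It was scarce in the controls of every line. In TCCSUP it was 0.198 and 0.230 CPM in the controls (5 and 6 counts) and 8.31 and 4.29 CPM after CM-1758, a log2 fold change of 4.85 ± 0.45 (adjusted p = 6.2e-07). In 253J it was 1.34 and 0.958 CPM in the controls and 6.77 and 6.24 CPM in treated cells, a log2 fold change of 2.49 ± 0.36 (adjusted p = 3.61e-05). In RT112 it was 1.24 and 1.69 CPM in the controls and 6.34 and 6.18 CPM in treated cells, a log2 fold change of 2.09 ± 0.35 (adjusted p = 0.000187). In these 3 lines both treated libraries stood above both controls, and the treated libraries ran from 4.29 to 8.31 CPM. The controls of 253J and RT112 overlapped, and those of TCCSUP lay below them.

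J82 gave the smallest change of KLF2. The controls held 13 and 14 counts (0.494 and 0.509 CPM) and the treated libraries 25 and 42 counts (0.895 and 1.42 CPM), a log2 fold change of 1.20 ± 0.42 (adjusted p = 0.0312). The groups did not overlap, but the call rested on few counts: it was lost without J82 control replicate 1 (adjusted p = 0.104), J82 control replicate 3 (adjusted p = 0.101) or J82 treated replicate 3 (adjusted p = 0.239), and when J82 was fitted alone (adjusted p = 0.0996).

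KLF4, a zinc finger factor of differentiating epithelium and of the reprogramming cocktail, rose in 3 lines and fell in J82. In RT112 it was 5.07 and 6.07 CPM in the controls and 50.9 and 51.8 CPM with CM-1758, a log2 fold change of 3.21 ± 0.17 (adjusted p = 6.53e-09). In 253J it was 4.27 and 4.06 CPM in the controls and 21.9 and 21.5 CPM in treated cells, a log2 fold change of 2.38 ± 0.17 (adjusted p = 6.71e-08). In TCCSUP it was 10.8 and 7.62 CPM in the controls and 27.7 and 27.1 CPM in treated cells, a log2 fold change of 1.57 ± 0.16 (adjusted p = 1.44e-06). In all 3 the treated libraries lay far above the controls and close to each other.

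J82 was the line with the most KLF4 before the drug, at 32.8 and 31.3 CPM, and its treated libraries had 24.1 and 24.6 CPM, a log2 fold change of -0.40 ± 0.15 (adjusted p = 0.047). The groups did not overlap, yet the call stood at the edge of the threshold and was lost in 14 of the 16 fits that left out a library, under RLE scaling (adjusted p = 0.12), under library size alone (adjusted p = 0.205) and in DESeq2 (adjusted p = 0.097). The levels of KLF4 spanned 7.69-fold between the highest and lowest line in the controls and 2.37-fold after CM-1758.

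**Figure D2:**
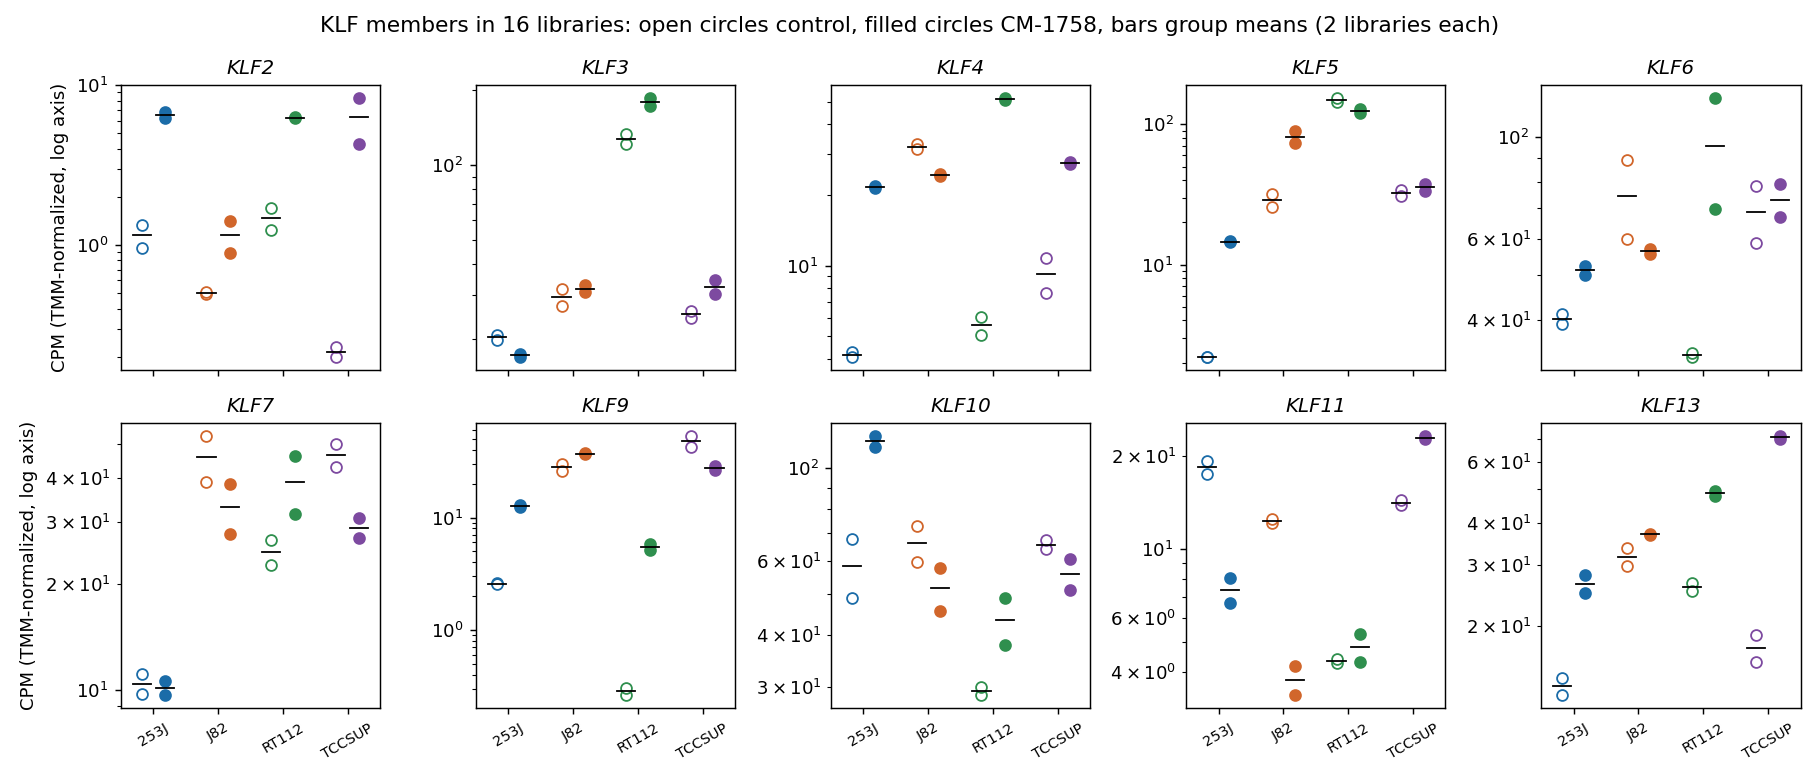
CPM after TMM scaling (vertical axes, logarithmic) of each KLF member in every library of the 4 cell lines. Open circles are controls, filled circles are CM-1758 and bars are means of 2 libraries, so that KLF2 can be seen higher after the drug in each line and KLF11 lower in 253J and J82.

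KLF5, a factor of proliferating basal epithelium, was called higher in 253J and J82. RT112 had by far the highest control level, 143 and 154 CPM, and 253J the lowest, 2.17 and 2.18 CPM, a 68.2-fold span of group means. In 253J it went to 14.4 and 14.6 CPM, a log2 fold change of 2.73 ± 0.17 (adjusted p = 2.75e-08). In J82 it went from 31.8 and 25.6 CPM to 73.6 and 89.1 CPM, a log2 fold change of 1.50 ± 0.14 (adjusted p = 1.34e-06). These 2 lines showed no overlap between treated and control libraries.

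In the other lines KLF5 was not called. RT112 had 128 and 121 CPM after the drug, below both of its controls, with a log2 fold change of -0.26 ± 0.14 (adjusted p = 0.14). TCCSUP had 34.0 and 31.1 CPM in the controls and 37.8 and 33.6 CPM in treated cells, which overlap, with a log2 fold change of 0.13 ± 0.14 (adjusted p = 0.441). With library size alone as the scaling the TCCSUP value was 0.45 and was called (adjusted p = 0.0145). After CM-1758 the span of KLF5 between lines was 8.58-fold.

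KLF9, which binds the basic transcription element and is induced by glucocorticoid and thyroid hormone, showed both the widest range of control levels and the most divergent effects. Its controls had 42.7 and 53.6 CPM in TCCSUP, 29.9 and 26.1 CPM in J82, 2.61 and 2.57 CPM in 253J and 0.262 and 0.305 CPM in RT112 (8 and 9 counts). That is a 170-fold span of group means, and no neighbours in the order overlapped. CM-1758 moved the 2 ends toward each other, and the span in treated cells was 6.70-fold.

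KLF9 went to 5.17 and 5.87 CPM in RT112, a log2 fold change of 4.26 ± 0.24 (adjusted p = 1.01e-08). In 253J it went to 12.9 and 12.4 CPM, a log2 fold change of 2.28 ± 0.17 (adjusted p = 9.04e-08). In J82 the treated libraries had 36.5 and 37.5 CPM and the log2 fold change was 0.40 ± 0.14 (adjusted p = 0.034). In TCCSUP, the line with the highest control level, KLF9 fell to 29.05 and 26.5 CPM, a log2 fold change of -0.79 ± 0.14 (adjusted p = 0.000291). Groups did not overlap in any line. The J82 call was lost when the filter on low counts was dropped (adjusted p = 0.0645), when J82 was fitted alone (adjusted p = 0.13) and without J82 control replicate 3 (adjusted p = 0.189) or J82 treated replicate 3 (adjusted p = 0.122).

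**Figure D3:**
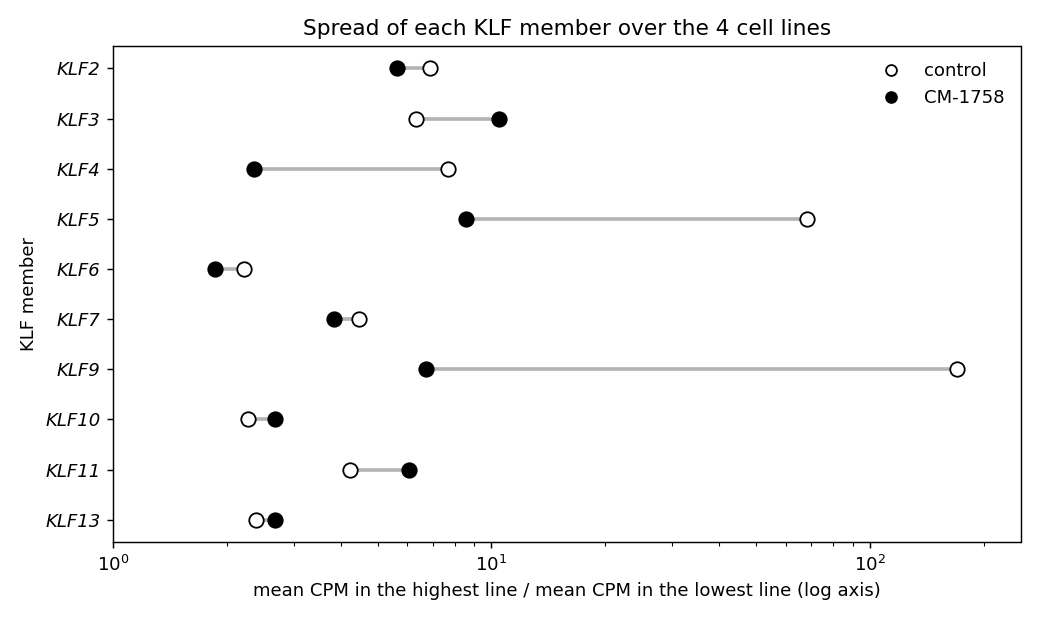
Mean CPM in the highest cell line divided by mean CPM in the lowest (horizontal axis, logarithmic) for each KLF member, in controls (open circles) and with CM-1758 (filled circles). KLF9 runs from 170 to 6.70, KLF5 from 68.2 to 8.58 and KLF4 from 7.69 to 2.37, while KLF3, KLF10, KLF11 and KLF13 move the other way.

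The narrowing was not general among the members. On log2 CPM with a prior count of 2, the range of the line means was narrower after CM-1758 for 5 of 10 members, and for 53.2% of all tested genes. The range was wider for KLF3, which went from 6.31-fold to 10.5-fold, and for KLF11, which went from 4.22-fold to 6.05-fold, as ratios of mean CPM. It was also wider for KLF10 (2.27-fold to 2.68-fold) and KLF13 (2.39-fold to 2.68-fold). KLF2 was the fifth, with a log2 range of 2.41 in controls and 2.45 in treated cells, although its ratio of mean CPM went from 6.87-fold to 5.62-fold. Control levels differed between lines for all 10 members, with adjusted p from 1.01e-12 for KLF9 to 0.000616 for KLF6, as they did for 78.8% of all genes.

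KLF13, a close relative of KLF9 first studied as an activator of CCL5 in T cells, was called higher in 3 lines and lower in none. In TCCSUP it was 18.8 and 15.6 CPM in the controls and 71.7 and 70.2 CPM with CM-1758, a log2 fold change of 2.04 ± 0.14 (adjusted p = 3.25e-08). In 253J the controls had 12.5 and 14.1 CPM and the treated libraries 28.1 and 24.9 CPM, a log2 fold change of 1.00 ± 0.14 (adjusted p = 2.27e-05). In RT112 the controls had 26.6 and 25.3 CPM and the treated libraries 49.6 and 47.7 CPM, a log2 fold change of 0.91 ± 0.13 (adjusted p = 6.01e-05). J82 had 33.7 and 29.9 CPM against 36.9 and 37.1 CPM, without overlap but uncalled, with a log2 fold change of 0.22 ± 0.13 (adjusted p = 0.2). That J82 value was called under library size alone (0.36, adjusted p = 0.039), with the filter of at least 10 counts in every library (0.33, adjusted p = 0.0469) and in DESeq2 (0.31, adjusted p = 0.0385).

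KLF10 and KLF11, both named as early genes induced by TGF-beta and both able to bring SIN3A, did not move together. KLF11 fell in 253J from 19.2 and 17.5 CPM to 8.08 and 6.68 CPM, a log2 fold change of -1.32 ± 0.18 (adjusted p = 1.92e-05). In J82 it fell from 12.1 and 12.5 CPM to 3.37 and 4.20 CPM, a log2 fold change of -1.70 ± 0.18 (adjusted p = 4.87e-06). In TCCSUP it rose from 13.8 and 14.4 CPM to 23.2 and 22.6 CPM, a log2 fold change of 0.70 ± 0.17 (adjusted p = 0.00311). The treated and control libraries did not overlap in these 3 lines. RT112 had the lowest control level, 4.28 and 4.41 CPM, against 4.30 and 5.30 CPM in treated cells, which overlap (log2 fold change 0.15 ± 0.19, adjusted p = 0.56). KLF11 in J82 stood low among all tested genes, with 3.4% of them below it.

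KLF10 rose in 253J from 67.9 and 48.9 CPM to 119.8 and 113 CPM, a log2 fold change of 0.99 ± 0.18 (adjusted p = 0.000327), and 253J then had more of it than any other line. In RT112 it went from 28.6 and 29.9 CPM to 37.8 and 49.0 CPM, a log2 fold change of 0.57 ± 0.18 (adjusted p = 0.0193). The RT112 call was lost without RT112 control replicate 1 (adjusted p = 0.105), RT112 control replicate 2 (adjusted p = 0.0698) or RT112 treated replicate 2 (adjusted p = 0.209). In J82 and TCCSUP it was not called, at -0.36 ± 0.18 (adjusted p = 0.125) and -0.23 ± 0.18 (adjusted p = 0.296), and the treated and control libraries did not overlap.

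KLF6, a growth-restraining factor with a wide tissue range, was called in RT112. Its controls there had 33.2 and 34.0 CPM and its treated libraries 69.7 and 122 CPM, a log2 fold change of 1.51 ± 0.23 (adjusted p = 0.000103). The 2 treated libraries lay far apart, both above the controls, and the value was 1.05 without the higher of them and 1.85 without the lower. The other lines gave 0.35 ± 0.23 in 253J (adjusted p = 0.224), -0.40 ± 0.23 in J82 (adjusted p = 0.179) and 0.09 ± 0.23 in TCCSUP (adjusted p = 0.776). In 253J KLF6 was called higher under library size alone (0.62, adjusted p = 0.0425) and when that line was fitted alone (0.34, adjusted p = 0.0465), and in J82 it was called lower without J82 control replicate 3 (-0.66, adjusted p = 0.0465). The difference between lines was tested over all 4 of them and not for RT112 against each other line.

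KLF7, an activator best known from developing neurons, moved in opposite directions in RT112 and TCCSUP. In RT112 it went from 22.7 and 26.7 CPM to 31.7 and 46.2 CPM, a log2 fold change of 0.66 ± 0.21 (adjusted p = 0.0166). In TCCSUP it went from 43.1 and 50.05 CPM to 27.1 and 30.8 CPM, a log2 fold change of -0.68 ± 0.21 (adjusted p = 0.0116). The groups did not overlap in these lines. The RT112 call was lost without RT112 control replicate 1 (adjusted p = 0.132) or RT112 treated replicate 2 (adjusted p = 0.246). The TCCSUP call was lost without TCCSUP control replicate 2 (adjusted p = 0.0852) or TCCSUP treated replicate 1 (adjusted p = 0.0864), and under library size alone (adjusted p = 0.164). J82 gave -0.47 ± 0.21 (adjusted p = 0.0808) and 253J -0.04 ± 0.22 (adjusted p = 0.938). The J82 value was called lower without J82 control replicate 3 (-0.67, adjusted p = 0.0311) or J82 treated replicate 1 (-0.65, adjusted p = 0.049).

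KLF3, a repressor that works through CTBP, was called higher in RT112 and TCCSUP. RT112 had the highest control level, 122 and 134 CPM, and rose to 173 and 187 CPM, a log2 fold change of 0.49 ± 0.12 (adjusted p = 0.00449). TCCSUP rose from 24.3 and 25.8 CPM to 34.4 and 30.4 CPM, a log2 fold change of 0.37 ± 0.13 (adjusted p = 0.0242). In both the treated libraries lay above the controls. The TCCSUP call was lost whenever any 1 of its 4 libraries was left out except treated replicate 2 (adjusted p from 0.0707 to 0.195) and when the filter on low counts was dropped (adjusted p = 0.0531), and the RT112 call without RT112 control replicate 1 (adjusted p = 0.062). The values were 0.11 ± 0.13 in J82 (adjusted p = 0.511) and -0.24 ± 0.13 in 253J (adjusted p = 0.137). KLF3-AS1, named as an antisense gene of KLF3, had 0 to 79 counts in a library against 441 to 4895 for KLF3. Whether the counting used strand is not given in the sources used here.

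To compare members with each other, CPM was divided by the length of each gene's merged exons (GENCODE v29, 2018 bases for KLF2 to 8631 for KLF7). On this scale of CPM per kb, KLF10 was the leading member of the 253J controls, with 41.5% of the sum of the 10, and also of the J82 controls with 23.3% and the TCCSUP controls with 25.5%. KLF5 led the RT112 controls with 47.1%. KLF2, the member with the largest mean fold change, made up 0.16% to 1.62% of the sum in controls and 0.76% to 5.03% after CM-1758.

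With CM-1758 KLF10 still led in 253J at 45.3% and in TCCSUP at 17.9%, and KLF5 led in J82 at 28.7% and in RT112 at 26.7%. KLF13 went from 3.88% of the sum in TCCSUP controls to 13.2% in treated TCCSUP. The sum itself was 37.6 and 32.7 CPM per kb in 253J controls and 66.0 and 62.4 in treated 253J. In RT112 it was 81.1 and 87.4 in controls and 117 and 131 in treated cells, and in TCCSUP 61.9 and 67.0 against 80.4 and 75.5. In J82 it was 78.0 and 64.1 in controls against 75.5 and 75.6, which overlap. The treated sum therefore lay above both controls in 253J, RT112 and TCCSUP, as values without a test.

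**Figure D4:**
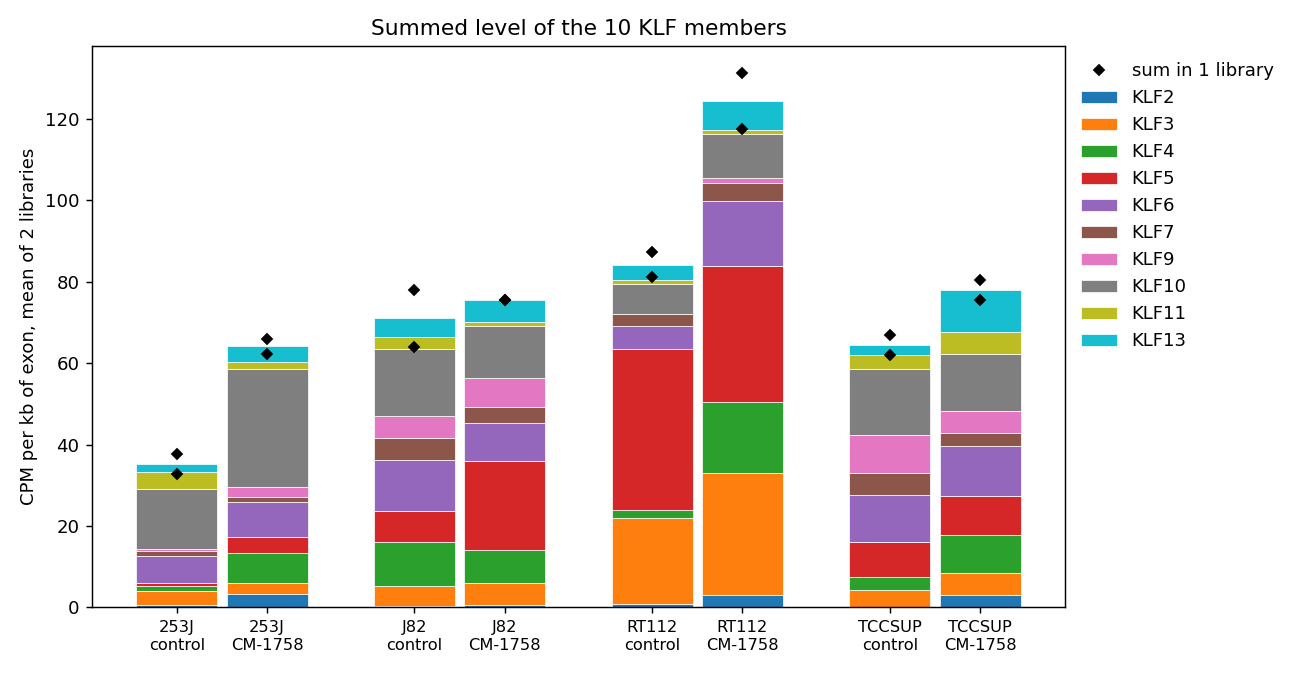
Level of the 10 KLF members in CPM per kb of exon (vertical axis), stacked as means of 2 libraries for each line and treatment, with diamonds for the sum in each library. The treated bar is taller than the control bar by more than the distance between libraries in 253J, RT112 and TCCSUP, while the J82 control diamonds lie on both sides of the treated ones.

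The remaining KLF genes were far less abundant in some lines. Of 8 such genes 7 were tested, with 3 higher and 1 lower in 253J, 2 and 0 in J82, 4 and 0 in RT112 and 2 and 1 in TCCSUP. Their median log2 fold change was 1.58, 0.49, 4.71 and 0.18 in these lines, or 0.37, 0.49, 0.47 and 0.18 with genes at the floor of 3 counts per library put at their bound. KLF14 had 0 counts in both 253J controls and 25 and 33 after CM-1758, at least 9.41-fold higher, and KLF18 had 0 counts in both TCCSUP controls and 17 and 22 after the drug, at least 6.43-fold higher. Chosen after their values were seen, KLF15 had 0 counts in both TCCSUP controls and 103 and 152 in treated cells, at least 42.1-fold higher, and KLF12, a repressor like KLF3, had 12 and 3 counts in RT112 controls and 270 and 275 in treated cells (log2 fold change 5.37 ± 0.30, adjusted p = 9.68e-09). KLF16 was called in none of the lines. Beside these counts and those of the lists below, 24% to 32% of all tested genes were higher and 18.5% to 22.4% lower in a line.

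The SP factors share the GC box with the KLFs. Of 9 genes 7 were tested, with 2 higher and 2 lower in 253J, 1 and 1 in J82, 2 and 1 in RT112 and 2 and 0 in TCCSUP, and their median log2 fold change was -0.40, -0.34, 0.52 and 0.41. SP8 had 0 counts in both TCCSUP controls and 34 and 27 in treated cells, at least 10.0-fold higher, and SP2 was called in 253J alone (log2 fold change 1.85 ± 0.51, adjusted p = 0.00666). SP1, the abundant general activator, was chosen after its values were seen. It was lower in 253J (-0.63 ± 0.15, adjusted p = 0.00287) and J82 (-0.62 ± 0.15, adjusted p = 0.00395), higher in RT112 (0.52 ± 0.15, adjusted p = 0.0107) and uncalled in TCCSUP (-0.06 ± 0.15, adjusted p = 0.785).

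Of 11 genes that act upstream of the members, 3 were higher and 3 lower in 253J, 3 and 2 in J82, 3 and 2 in RT112 and 4 and 3 in TCCSUP, with medians of -0.22, -0.07, 0.21 and 0.01. MEF2C and MEF2D, the DNA-binding factors through which MAPK7 drives KLF2 and KLF4, were higher in all 4 lines, a pattern of 6.69% of all genes. The log2 fold change of MEF2D was 2.08 ± 0.27 in TCCSUP, 2.03 ± 0.29 in 253J, 1.54 ± 0.28 in RT112 and 1.40 ± 0.28 in J82 (adjusted p from 1.54e-05 to 0.00107). MEF2C had a value of 3.47 ± 0.43 for RT112, 2.88 ± 0.38 for J82 and 1.13 ± 0.34 for 253J, and TCCSUP held 0 and 2 counts of it in the controls against 32 and 33. The kinases MAP2K5 and MAPK7 were called in none of the lines. SMAD4, the shared partner of the receptor SMADs of the TGF-beta pathway, was lower in all 4 lines, from -0.38 ± 0.12 in 253J to -0.68 ± 0.13 in RT112 (adjusted p from 0.000452 to 0.0189).

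Of 12 cofactors of KLF proteins, 1 was higher and 6 lower in 253J, 0 and 7 in J82, 4 and 2 in RT112 and 1 and 6 in TCCSUP, with medians of -0.31, -0.67, 0.16 and -0.84. CTBP1, the corepressor of KLF3, was lower in all 4 lines, at -1.48 ± 0.14 in TCCSUP, -1.28 ± 0.14 in J82, -1.09 ± 0.14 in RT112 and -0.73 ± 0.14 in 253J (adjusted p from 7.62e-07 to 0.000408). KAT2A, a histone acetyltransferase, was lower in all 4 lines as well, from -0.99 ± 0.19 in TCCSUP to -2.05 ± 0.19 in 253J (adjusted p from 5.14e-07 to 0.00045). The share of all genes lower in all 4 lines was not counted, so SMAD4, CTBP1 and KAT2A have no such value beside them. Of 7 ubiquitin ligases reported to act on KLF proteins, 1 was higher and 2 lower in 253J, 1 and 1 in J82, 3 and 1 in RT112 and 1 and 2 in TCCSUP, with medians of -0.11, -0.01, 0.32 and -0.16. FBXW7, a ligase of KLF5, was higher in J82, RT112 and TCCSUP, and SIAH1 was lower in 253J, J82 and RT112.

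**Figure D5:**
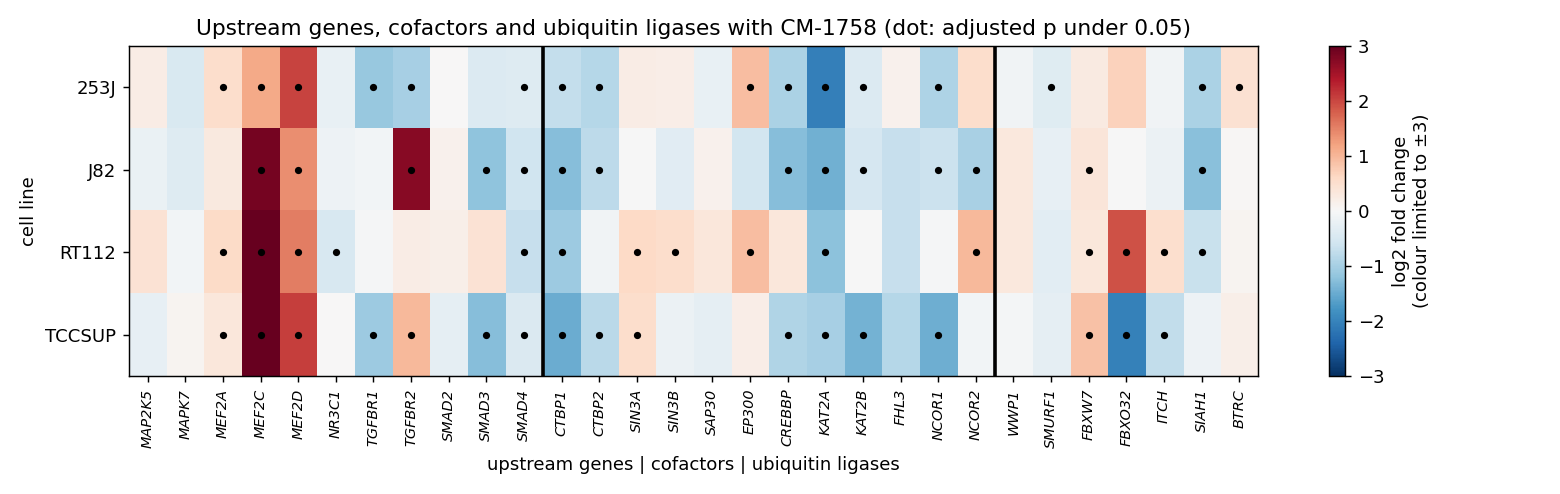
Log2 fold change with CM-1758 (colour, limited to ±3) of 11 upstream genes, 12 cofactors and 7 ubiquitin ligases (columns) in the 4 cell lines (rows). Dots mark an adjusted p under 0.05, which MEF2C and MEF2D reach upward and SMAD4, CTBP1 and KAT2A downward in all 4 rows.

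Of 20 textbook target genes of KLF proteins, some were called in each direction, with 3 higher and 6 lower in 253J, 7 and 5 in J82, 7 and 3 in RT112 and 6 and 7 in TCCSUP. Their median log2 fold change was -0.16, 0.57, 0.30 and -0.22, or -0.02, 0.00, 0.30 and -0.22 with genes at the floor put at their bound. NOS3, the endothelial nitric oxide synthase and a KLF2 target of endothelium, was higher in all 4 lines, a pattern of 6.69% of all genes. It had 0 counts in both 253J controls and 186 and 299 in treated cells, at least 78.1-fold higher, and 8 and 12 counts in RT112 controls against 482 and 642 (adjusted p = 2.06e-06). In J82 it had 0 and 2 counts against 3 and 19, and in TCCSUP 0 and 1 against 23 and 45. KRT20, a keratin of the luminal urothelium, was the only urothelial marker higher in all 4 lines. It had 0 counts in all controls of 253J, J82 and TCCSUP and 5 to 296 counts in their treated libraries, and in RT112 a log2 fold change of 1.41 ± 0.34 (adjusted p = 0.0052).

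The 15 urothelial markers were otherwise split, with 3 higher and 4 lower in 253J, 6 and 1 in J82, 2 and 5 in RT112 and 4 and 6 in TCCSUP. Of 3 mesenchymal markers all 3 were higher in RT112, where VIM had a log2 fold change of 4.23, while 0 were higher and 1 lower in 253J, 1 and 1 in J82 and 1 and 2 in TCCSUP. Of 7 markers of blood and endothelial cells 5 were tested, and 1 was higher in each line and 1, PTPRC, lower in TCCSUP. The part of these cell state markers in the KLF values was not tested.

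Across the 16 libraries, the levels of some members ran together on log2 CPM. The highest Pearson correlations among 45 pairs were 0.79 for KLF4 with KLF13, 0.75 for KLF4 with KLF6 and 0.75 for KLF3 with KLF5, and the lowest was -0.76 for KLF3 with KLF10. These points share cell line and treatment, so the values mostly describe differences between 8 groups. Among all tested genes the pattern most like that of KLF2 was ZFAND4 (r = 0.96), that of KLF3 was KRT23 (0.97) followed by GRHL2 (0.97), and that of KLF5 was GFOD1 (0.98) followed by STON2 and PPL. KLF4 ran closest to CSNK2A2 (0.94), KLF6 to CBL (0.93), KLF7 to FAM225B (0.97), KLF9 to TMEM158 (0.97), KLF10 to SMG6 (0.92), KLF11 to LINC00847 (0.92) and KLF13 to NAALAD2 (0.95) followed by HNF4A (0.94).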

How the data were processed

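Total RNA was depleted of ribosomal RNA and made into stranded libraries by the study. The authors deposited 1 table of raw counts, whole numbers of reads per gene symbol in each library, and the submitters' processing notes name HISAT2, StringTie and the build GRCh37 without versions or roles. How reads shared by similar KLF genes, pseudogenes or opposite strands were assigned is not given in the sources used here. Columns were matched to samples by the labels, and 0 columns were left over.

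Genes were filtered by filterByExpr over the 8 groups (21297 of 35993 kept, 5098 without a count), scaled by TMM and fitted with 8 group means by edgeR's quasi-likelihood method (version 4.0.16, under R 4.3.3), with Benjamini-Hochberg adjustment over all tested genes within each contrast. A standard error is the size of the log2 fold change over the root of its F value. The spread of each gene was shared by all 8 groups. The chi-square per degree of freedom between the libraries of a group was 73.1 in J82 controls and 49.2 in treated J82. It was 11.7 to 21.8 in the groups of the other lines, so J82 libraries agreed less well by this measure. The Pearson correlation of log2 CPM between them was 0.98 to 0.99 in every group. CPM used TMM-scaled library sizes. A group with 3 or fewer counts in each library was taken to be at the floor. On simulated counts for 21297 genes, each changed gene was changed in 1 of the 4 lines and had a mean above 1 CPM. Of these, 97 of 100 changed 4-fold and 61 of 100 changed 2-fold were recovered, with 9 other calls over the 4 line contrasts. Far fewer genes changed in the simulation than were called in the data. Each simulated gene also had the same control level in all 4 lines and a spread set by the trend over genes. In the data the control level differed between lines for 78.8% of genes. These rates therefore need not hold for the data.

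Alternatives were RLE scaling, library size alone, no filter, at least 10 counts in every library, omission of 7 small noncoding RNA genes, a replicate block, each library left out, each line fitted alone, DESeq2 1.42.0 and the study's own limits. The members and gene lists were chosen with earlier results of these data known. Apart from the members, genes are named when called in 1 direction in all 4 lines or, where a list has none, as the 2 with the largest mean change among those called in at least 1 line, unless stated. Same-numbered libraries deviated together with correlations of 0.22 in J82, 0.05 in 253J, 0.04 in RT112 and 0.02 in TCCSUP. The numbers were not taken to pair libraries in the main fit. The larger value leaves a pairing possible in J82, where the replicate block added KLF7 and KLF10 to the members called lower.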

Additional observations from a re-analysis of the deposited data

Results flagged for a closer look

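Each of the 10 KLF members was marked because the effect of CM-1758 differed between the 4 cell lines by the F test of the interaction in edgeR, with p-values adjusted over all tested genes. The groups of 2 libraries were too small to be searched for single stray samples. KLF9 had its largest log2 fold change in RT112 and its smallest in TCCSUP, 5.06 apart (adjusted p = 2.32e-08). For KLF4 the log2 fold changes of RT112 and J82 lay 3.60 apart (adjusted p = 1.01e-07). Between 253J and RT112 the log2 fold change of KLF5 differed by 2.99 (adjusted p = 2.47e-07). KLF11 had its largest log2 fold change in TCCSUP and its smallest in J82, 2.40 apart (adjusted p = 4.73e-06). For KLF13 the log2 fold changes of TCCSUP and J82 lay 1.82 apart (adjusted p = 1.67e-05). Between 253J and J82 the log2 fold change of KLF10 differed by 1.35 (adjusted p = 0.00107). KLF6 had its largest log2 fold change in RT112 and its smallest in J82, 1.91 apart (adjusted p = 0.00123). For KLF2 the log2 fold changes of TCCSUP and J82 lay 3.65 apart (adjusted p = 0.00134). Between RT112 and TCCSUP the log2 fold change of KLF7 differed by 1.34 (adjusted p = 0.00599). KLF3 had its largest log2 fold change in RT112 and its smallest in 253J, 0.73 apart (adjusted p = 0.0139). These differences were called for 51.9% of all tested genes, so the count of 10 members is read against that share. The call of KLF3 was the one that leaving out a library could end.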

How the results depend on the processing

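The limits of a log2 fold change of 2 and an adjusted p of 0.01 left 0 members lower in 253J, 0 higher and 0 lower in J82, 3 higher in RT112, and 2 higher and 0 lower in TCCSUP. The number of members lower in J82 was 1 under RLE scaling, library size alone, no filter, at least 10 counts in every library, J82 fitted alone and DESeq2, because KLF4 left the call, and 1 member was higher in J82 when it was fitted alone. In TCCSUP 1 member was lower under library size alone and with at least 10 counts in every library. That filter removes KLF2 and KLF9, which therefore have no value there. With each library left out in turn, members higher numbered 6 in 253J, 1 to 3 in J82, 5 to 8 in RT112 and 4 to 5 in TCCSUP, and members lower 1, 1 to 3, 0 and 1 to 2. A group left with 1 library was assumed to vary like the others.

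Values not called that changed sign were KLF7 in 253J (0.0017 with RLE, 0.23 with library size alone, 0.038 with at least 10 counts, 0.0019 in DESeq2, and -0.13 to 0.049 with a library left out, being 0.049 and 0.023 without 253J control or treated replicate 3), KLF3 in 253J (0.030) and KLF10 in TCCSUP (0.078) with library size alone, KLF11 in RT112 (-0.016 to 0.28 with a library left out, lowest without treated replicate 2) and KLF6 in TCCSUP (-0.11 to 0.31 with a library left out, being -0.11 and -0.032 without control replicate 1 or treated replicate 2). The mean effect of KLF7 over the lines was 0.085 with library size alone. That scaling raised the median of all genes by 0.31 for TCCSUP, 0.27 for 253J, 0.15 for RT112 and 0.15 for J82. Of the 27 calls of a member in a line, 19 were kept under every alternative that gave a value, apart from the study's stricter limits. The mean effects of KLF3 and KLF10 over the lines lost their calls in 5 and 9 of the 16 fits that left out a library. The causes were not tested.

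With the replicate number as a block, 4 members were lower in J82, since KLF7 (-0.47, adjusted p = 0.0101) and KLF10 (-0.36, adjusted p = 0.0327) entered the call, and no other member changed its call in any line. 253J shares a single number between its groups, so its blocked contrast came from replicate 3, and 3 residual degrees of freedom were left against 8.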
